A study of Mus musculus with 8 samples.

Results

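Notch receptors and the genes of their nuclear response were followed here in mouse spleen CD4 T cells: the receptors Notch1 and Notch2, the nuclear partners Rbpj and Maml1, and the target or feedback genes Hes1, Nrarp and Dtx1. These 7 genes were taken by symbol from a deposited table of 54532 genes, each symbol matching 1 row, and all 7 were among the 14428 genes with enough counts to test. They were chosen by name with the measured fold changes of the same genotype comparison in view, Hes1 being among its largest falls. Their levels and fold changes are therefore descriptions, given without a test, and support nothing by themselves. The study sequenced polyadenylated RNA from primary CD4 cells of mouse spleen, all cultured for 2 days under pathogenic Th17 conditions. Of the libraries, 4 bear the genotype WT and 4 the genotype CYP1B1 knockout, described as Cyp1b1-/- in the series. Strain, age, how the deletion was made, and whether replicates were separate animals or cultures are not stated in the labels, so any p-value rests on a spread among libraries that may be purely technical.

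Notch signalling passes between touching cells. A ligand of the Delta or Jagged family on one cell binds a Notch receptor on its neighbour, the metalloprotease ADAM10 and then the gamma-secretase complex cut the receptor, and the freed intracellular domain moves to the nucleus. There it joins the DNA-binding protein RBPJ and a Mastermind coactivator (MAML1 is one) and switches on targets such as Hes1, a transcriptional repressor, and Nrarp and Dtx1, which feed back on the pathway. In T cells the pathway is known for committing thymic progenitors to the T lineage and for shaping helper cell differentiation after activation.

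The libraries held 8918342 to 15667313 counts, wild type 2 being the shallowest. Cyp1b1, the gene named in the genotype label, ran from 3.74 to 4.73 CPM (a gene's counts relative to the scaled total of its library) in the libraries labelled wild type and at 133.8 to 230.6 CPM in those labelled knockout. That runs against the label, and gene counts do not show which exons were read, so every direction here belongs to libraries as labelled. All 11 CD4 T cell markers were detected. Their sums per library were 3824 to 3963 CPM for wild type labels and 4119 to 4354 CPM for knockout labels. The pair of CD8 markers summed to 15.2 to 18.2 CPM over all libraries. Markers of B cells were present too, with sums of 582 to 885 CPM for wild type labels and 450.4 to 631 CPM for knockout labels. Within the label, knockout 1 and 4 were closest to each other and so were knockout 2 and 3: counts differed by a chi-square per gene of 3.78 and 3.33 within these pairs and of 6.76 to 9.88 across them. By edgeR's quasi-likelihood test 30.4% of all tested genes had an adjusted p under 0.05, with 15.7% higher and 14.6% lower where the label is knockout. Scaling by library totals alone took the share of calls that were higher from 51.9% to 39.5%, though it moved the median gene only from -0.000991 to -0.0504 on the log2 scale.

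Upstream DNA shows where the nuclear complex could be read in sequence. The 250 bases before an annotated transcription start are therefore printed for 3 members, from RefSeq on GRCm38.p6, the promoter table holding 6 of the 7. Hes1 has no entry. Rbpj is shown because it was the only one of the 6 with the core letters bound by RBPJ, TGGGAA on either strand. Dtx1 and Notch2 are shown because their libraries did not overlap between the labels, in opposite directions. Capitals mark TGGGAA (or TTCCCA, the same letters on the other strand) in Rbpj, and CACNAG (or CTNGTG), the letters of the N box that HES proteins bind, in Dtx1 and Notch2. The windows lie at chr5:53590096-53590345 on the plus strand for Rbpj, at chr5:120711670-120711919 on the minus strand for Dtx1 and at chr3:98013288-98013537 on the plus strand for Notch2. The Rbpj window lies within the deposited gene model of Rbpj, 53466152 to 53657362, so the start it precedes is an internal one. The Dtx1 window likewise lies within the deposited gene model of Dtx1, 120680202 to 120711927, near its upstream end. The last bases of the Notch2 window run past the start of its gene model at 98013527.
Rbpj: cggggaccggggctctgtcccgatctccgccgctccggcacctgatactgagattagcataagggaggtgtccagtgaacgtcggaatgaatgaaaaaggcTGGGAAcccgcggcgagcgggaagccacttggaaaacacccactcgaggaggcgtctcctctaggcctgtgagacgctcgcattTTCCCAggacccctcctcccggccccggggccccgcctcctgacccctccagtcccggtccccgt
Dtx1: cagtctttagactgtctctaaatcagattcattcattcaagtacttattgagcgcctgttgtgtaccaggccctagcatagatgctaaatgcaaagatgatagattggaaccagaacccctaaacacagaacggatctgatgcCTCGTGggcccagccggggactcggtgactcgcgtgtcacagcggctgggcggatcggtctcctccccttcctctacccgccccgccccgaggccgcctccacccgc
Notch2: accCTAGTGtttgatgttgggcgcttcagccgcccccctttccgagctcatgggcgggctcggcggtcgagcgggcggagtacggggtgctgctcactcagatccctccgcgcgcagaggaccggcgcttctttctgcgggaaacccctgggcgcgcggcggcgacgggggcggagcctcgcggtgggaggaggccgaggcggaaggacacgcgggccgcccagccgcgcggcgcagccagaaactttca

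The Rbpj window held TGGGAA 2 times, with first bases at -149 and -65 from the start, and a window from a second annotated start that overlaps it held 1 match. TGGGAA occurred in 21.6% of 32851 promoter windows of this length, and the longer GTGGGAA, which contains it, in 5.4% of them and in no member. CACNAG was found in 36.7% of all windows and in those of Notch1, Notch2, Dtx1 and Nrarp, with 2 matches in Nrarp and 1 in each of the others. These matches describe letters, not bound sites, and a window without a match says only that the letters are not in those 250 bases.

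Per length of gene model, the order of the members ran from Rbpj down to Nrarp. As CPM per kilobase, the mean levels in the libraries labelled wild type were 32.8 ± 2.26 for Rbpj, 17.8 ± 0.867 for Notch1, 9.63 ± 0.427 for Maml1, 6.46 ± 0.223 for Notch2, 2.78 ± 0.338 for Dtx1, 1.22 ± 0.528 for Hes1 and 0.455 ± 0.139 for Nrarp (SD, n = 4). Each member's lowest wild type library lay above the highest of the next in that order. In the libraries labelled knockout Rbpj, Notch1, Maml1, Notch2 and Dtx1 kept their places, but Maml1 and Notch2 overlapped there (8.91 to 10.6 and 7.54 to 8.95 CPM per kilobase). Hes1 had dropped below Nrarp to last, at 0.104 to 0.238 against 0.161 to 0.601 CPM per kilobase, ranges that overlap.

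**Figure D1:**
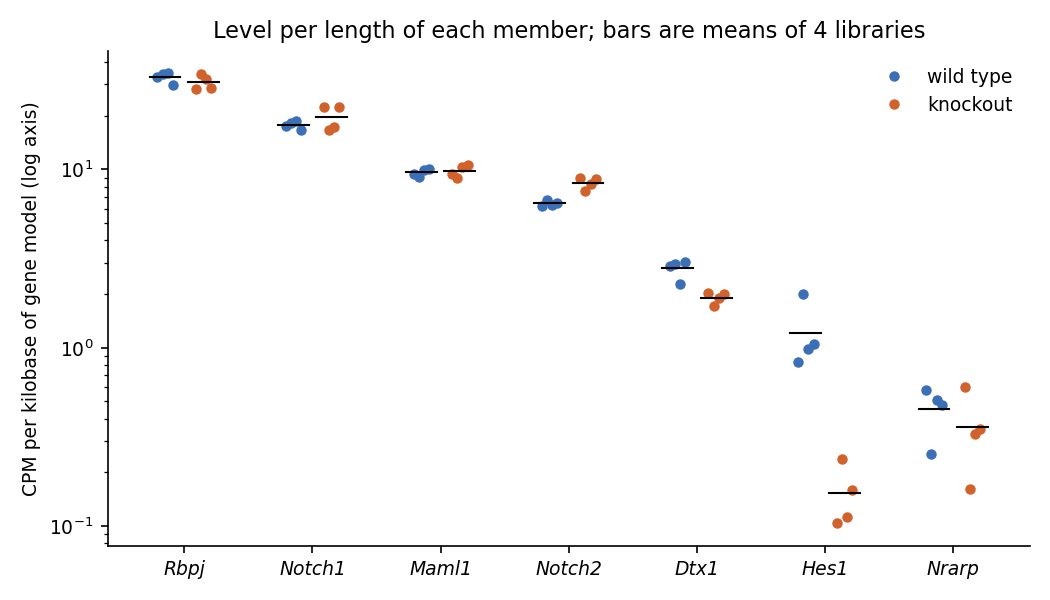
Level of each member as CPM per kilobase of gene model (log axis), 1 point per library, blue for wild type and orange for knockout labels, with black bars for the means of 4 libraries. Rbpj and Notch1 stand highest under either label, and Hes1 is the member that changes place, from a mean of 1.22 to 0.153.

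Among the receptors, Notch2 was higher in every library labelled knockout, while Notch1 was higher in only a pair of them. Notch2, the receptor known for marginal zone B cells and also present on activated T cells, lies on chromosome 3 at 98013527 to 98150361, plus strand (GRCm38). It had 67.6, 73.0, 68.3 and 69.96 CPM in wild type 1 to 4 and 96.5, 81.3, 89.6 and 94.7 CPM in knockout 1 to 4. The lowest knockout library was above the highest wild type one. The means were 69.7 ± 2.40 and 90.5 ± 6.83 CPM (SD, n = 4 each). On the log2 scale the change was 0.38 (SE 0.071), or 1.3-fold.

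Notch1, the main Notch receptor of developing and activated T cells, occupies 26457903 to 26516663 of chromosome 2, minus strand. Its level was 248.8, 260.1, 264.6 and 237.0 CPM in wild type 1 to 4, and 318.6, 237.2, 245.8 and 316.8 CPM in knockout 1 to 4. Only knockout 1 and 4 lay above the wild type libraries. Knockout 2 and 3 fell inside the wild type range. The means were 253 ± 12.3 and 280 ± 44.2 CPM (SD, n = 4 each), and the log2 fold change of 0.15 (SE 0.085) turned to -0.059 with knockout 2 and 3 alone and grew to 0.34 with knockout 1 and 4 alone. It ran from 0.081 without knockout 1 and 0.084 without knockout 4 to 0.22 without knockout 2. The ratio of Notch1 to Notch2, each per length, was 2.57 to 2.94 in the libraries labelled wild type and 2.08 to 2.53 in those labelled knockout, without overlap.

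In the nuclear complex neither member separated the labels. Rbpj, which the deposited table classes with the CSL factors, binds DNA and holds corepressors until the Notch intracellular domain arrives. It spans 53466152 to 53657362 on the plus strand of chromosome 5. Its libraries held 418.0, 436.5, 441.2 and 377.9 CPM (wild type 1 to 4) and 362.0, 438.8, 411.5 and 365.1 CPM (knockout 1 to 4). The ranges overlapped almost wholly, and knockout 1 and 4, where Notch1 was highest, had the least Rbpj. The log2 fold change was -0.085 (SE 0.070), turning to 0.029 with knockout 2 and 3 alone and reaching -0.19 with knockout 1 and 4 alone. Without knockout 1 it was -0.044, without knockout 4 -0.047, without wild type 4 -0.14 and without knockout 2 also -0.14.

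Maml1, the Mastermind coactivator, occupies 50255634 to 50292311 of chromosome 11, minus strand. Its levels were 52.3, 50.3, 54.9 and 55.4 CPM in wild type 1 to 4 and 51.9, 49.3, 57.2 and 58.7 CPM in knockout 1 to 4, in overlapping ranges. It was the steadiest of the 7 between the labels, with a log2 fold change of 0.026 (SE 0.078) whose sign flipped with library totals (-0.024), without wild type 2 (-0.0053) and without knockout 4 (-0.012).

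Of the target and feedback genes, Hes1 and Dtx1 were lower in every library labelled knockout, and Nrarp overlapped between the labels. Hes1, a basic helix-loop-helix repressor, lies on the plus strand of chromosome 16 at 30064384 to 30067796, with no other annotated gene over it. It was counted 24, 37, 29 and 31 times in wild type 1 to 4 and 3, 7, 3 and 5 times in knockout 1 to 4, or 121 reads against 18 over 4 libraries each. As CPM that is 1.70, 4.07, 2.02 and 2.13 in wild type 1 to 4 and 0.212, 0.484, 0.230 and 0.323 in knockout 1 to 4. The highest knockout library was far under the lowest wild type one, and the highest level of all was in wild type 2, the shallowest library. The means were 2.48 ± 1.08 and 0.312 ± 0.125 CPM (SD, n = 4 each). On the log2 scale the change was -2.90 (SE 0.41). It was -2.60 without wild type 2 and -3.18 without knockout 2, the ends of the range when 1 library was left out.

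Low counts bound what can be said of the size of the Hes1 difference. Hes1 passed the low-count filter, which needs about 0.703 CPM in 4 libraries, in 4 of 4 wild type libraries and in 0 of 4 knockout libraries, so it entered the test through the label where it is high. Its coefficient of variation was 43.4% among wild type libraries, where counting alone would give 18.2%, and 39.9% among knockout libraries, where counting alone would give 47.1%. In bulk RNA, fewer cells carrying a transcript and less of it per cell cannot be told apart.

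Most tested markers of B cells and of dendritic cells, macrophages and monocytes fell with Hes1. Of 17 B cell markers 15 fell and none rose, with a median log2 fold change of -0.94. That is 88.2% called lower, beside 14.6% of all tested genes. Fcrla and Jchain fell about as far as Hes1, with log2 fold changes of -2.96 and -2.90. All 17 summed to 582 to 885 CPM under the wild type label and 450.4 to 631 CPM under the knockout label, ranges that overlap. Ighm, the largest of them, stood at 345 and 342 CPM on average. Of 14 dendritic cell, macrophage and monocyte markers only 4 could be tested. Flt3, Zbtb46 and Cd68 fell and Itgax did not pass, or 75% called lower beside the same 14.6%. The whole list summed to 43.0 to 46.2 CPM for wild type and 18.5 to 27.7 CPM for knockout labels, without overlap. Most of that sum came from the same Flt3, Cd68 and Zbtb46, with wild type means of 23.8, 12.2 and 4.76 CPM. The sum therefore says little about the rest of the list. Clec9a and Cd209a had no count in any library, and Lyz2, Adgre1 and Siglech were at 0.298 CPM or less on average under either label. CD4 T cell markers went the other way: 4 of 11 were called higher, 7 did not pass and none was lower. That is 36.4% called higher, beside 15.7% of all tested genes, and their sums, given above, did not overlap between the labels. Sums of the CD8, the NK cell and the erythroid, platelet and neutrophil lists did overlap. CD8 markers summed to 15.4 to 18.2 CPM for wild type and 15.2 to 17.7 CPM for knockout labels. NK cell markers summed to 0.921 to 3.155 and 1.058 to 3.45 CPM. Erythroid, platelet and neutrophil markers summed to 4.80 to 7.91 and 4.33 to 6.52 CPM. Itga2b alone was called in the CD8, the NK cell and the erythroid, platelet and neutrophil lists, as lower. What part any of these cells had in the Hes1 level was not tested.

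Dtx1, an E3 ubiquitin ligase of the Deltex family that acts on Notch and is known from T cell anergy, occupies 120680202 to 120711927 of chromosome 5, minus strand, also with no other annotated gene over it. It had 15.2, 15.5, 12.0 and 15.9 CPM in wild type 1 to 4 and 10.7, 8.99, 9.97 and 10.5 CPM in knockout 1 to 4. All knockout libraries lay under the lowest wild type library, wild type 3, by a small margin. The means were 14.7 ± 1.78 and 10.04 ± 0.759 CPM (SD, n = 4 each). On the log2 scale the change was -0.54 (SE 0.13). That change ran from -0.64 to -0.49 over fits that left out 1 library. Flt3, Zbtb46 and Cd68, of the dendritic cell, macrophage and monocyte list, and most B cell markers stood lower beside it. The part of those cells in the Dtx1 level was not tested.

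Nrarp, a small ankyrin repeat protein that Notch induces and that then limits the Notch complex, lies on the plus strand of chromosome 2 at 25180758 to 25183339. It was counted 21, 6, 19 and 18 times in wild type 1 to 4 and 22, 6, 11 and 14 times in knockout 1 to 4. Replicate 2 was the lowest under both labels, at 0.659 and 0.415 CPM, and knockout 1 was the highest of all 8 at 1.55 CPM. The means of 1.18 ± 0.360 and 0.929 ± 0.469 CPM (SD, n = 4 each) gave a log2 fold change of -0.37 (SE 0.39), which does not exceed its error. It was -0.73 without knockout 1, -0.127 without knockout 2 and 0.033 with knockout 1 and 4 alone. An annotated antisense gene covers 2559 bases of Nrarp and was listed at 0 in all libraries. Whether counting used strand is not given in the sources used here, so reads of such a pair may not be told apart and the level of Nrarp is uncertain.

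**Figure D2:**
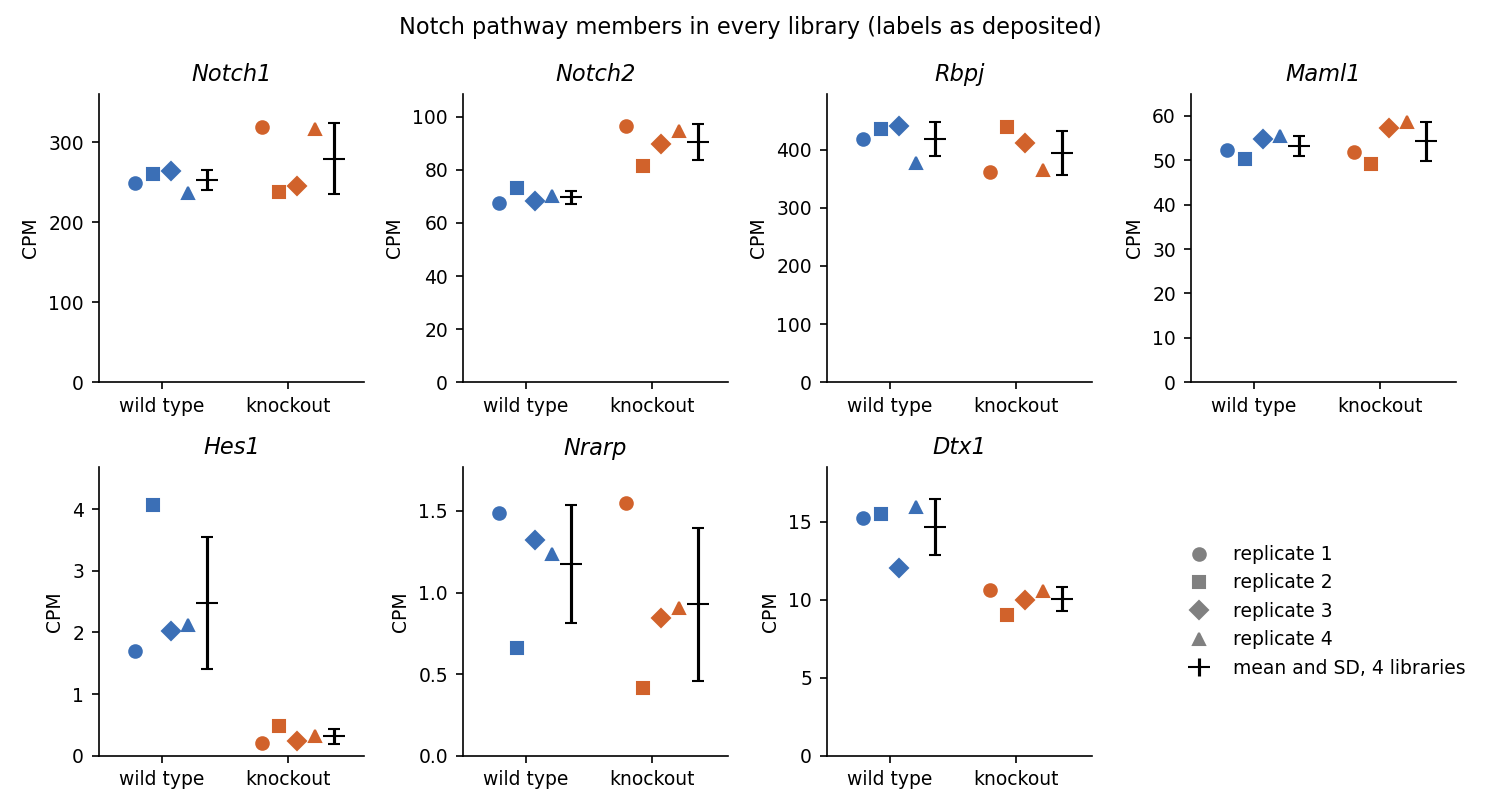
CPM of the 7 members in every library (linear axes from 0), by label, with symbol shape for the replicate number and black marks for the mean and SD of 4 libraries. Notch2, Hes1 and Dtx1 separate the labels, while Notch1 is raised only in knockout 1 and 4 (318.6 and 316.8 CPM) and Nrarp is lowest in replicate 2 of either label.

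Libraries did not overlap between the labels for 3 of the 7 members, Notch2, Hes1 and Dtx1, beside 29.2% of all tested genes. As the members were picked with this comparison known, nothing is read from that count. Antisense genes also overlap Rbpj, Notch1 and Maml1, but had at most 16 counts in any library.

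By the profile over the 8 libraries, Hes1 was most like Hdac9, a class IIa histone deacetylase, among 11554 tested protein-coding genes. The root mean square difference between their log2 CPM values, each centred on its own mean, was 0.298. Hdac9 went from 6.72 ± 0.915 to 1.35 ± 0.349 CPM (SD, n = 4 each). Next came Slc15a2, a peptide transporter (0.43), Kit, the stem cell factor receptor (0.459), Ctse, the protease cathepsin E (0.468), and M1ap (0.484). Their log2 fold changes were -2.00, -2.16, -1.99 and -1.74. Slc15a2 and Ctse were far more abundant than Hes1 in counts, with wild type means of 135 ± 10.2 and 109 ± 5.54 CPM. Hdac9, Kit, Ctse and M1ap shared with Hes1 its highest library, wild type 2, and Slc15a2 was highest in wild type 4. The measure keeps the label difference in each profile, so it favours genes with a similar label difference in these log2 CPM values. Those values include a prior count of 2, which narrows differences at low counts such as those of Hes1. All 5 genes changed less than Hes1 did in the fit (-2.90). No other member changed by a log2 fold change of 1 or more, the limit set for this search.

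**Figure D3:**
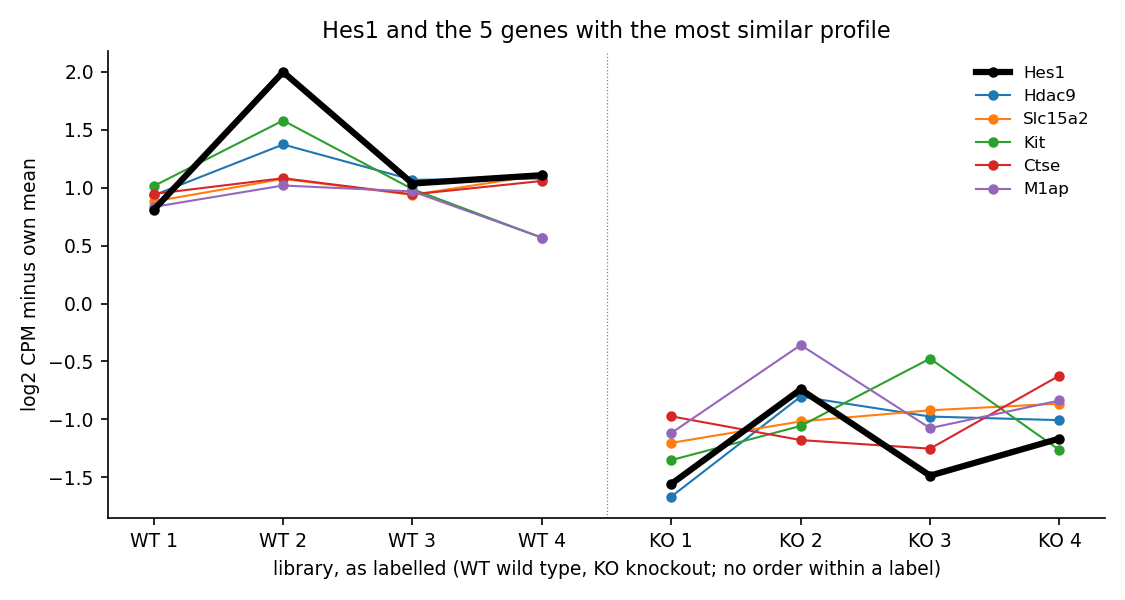
Log2 CPM minus the gene's own mean for Hes1 (black) and the 5 genes of most similar profile over the 8 libraries, which have no order within a label. All 6 are above their mean in every library labelled wild type and below it in every one labelled knockout, and all but Slc15a2 are highest in wild type 2.

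Beyond the members, 89 genes of the pathway listed by role were in the table and 76 could be tested, of which 19 were higher, 14 lower and 43 did not pass in the libraries labelled knockout. That is 43.4% called, beside 30.4% of all tested genes, with a median log2 fold change of 0.026 beside -0.000991. All p-values in the following paragraphs are edgeR quasi-likelihood values adjusted by Benjamini-Hochberg over all 14428 genes, n = 4 each. With knockout 2 and 3 alone 12 were higher and 11 lower.

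Among ligands, Jag2 was the one with substantial reads. This Jagged ligand stood at 27.3 to 35.0 CPM under the wild type label and 38.5 to 45.5 CPM under the knockout label, without overlap, and rose by a log2 fold change of 0.45 (SE 0.091, adjusted p = 0.000612). Dll4, the Delta ligand of antigen-presenting cells, had 1.92 ± 0.585 and 1.79 ± 0.362 CPM and did not pass (adjusted p = 0.799). Dll1, Dll3 and Jag1 were below the filter, at 0.637 CPM or less under either label. Of the remaining receptors Notch3 fell, to 5.44 ± 0.819 CPM from 9.96 ± 2.50 CPM (SD, n = 4 each). On the log2 scale the change was -0.85 (SE 0.18, adjusted p = 0.000887), opposite in sign to the Notch2 value. Notch4, a receptor known from endothelium, had 1.99 ± 0.604 and 2.50 ± 0.213 CPM and did not pass (adjusted p = 0.344). Per length Notch3 and Notch4 were at 1.24 and 0.247 CPM per kilobase in wild type libraries, under Notch1 and Notch2.

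Of 15 tested genes that modify and cut the receptor 2 were called higher, 2 lower and 11 did not pass, or 26.7% called beside 30.4% of all tested genes. Furin, the protease that makes the first cut in the secretory route, fell from 471 ± 59.4 to 341 ± 13.3 CPM, a log2 fold change of -0.47 (SE 0.075, adjusted p = 4.44e-05). Adam17, a surface metalloprotease, rose by 0.32 (SE 0.069, adjusted p = 0.00116). Adam10, the main Notch sheddase, stood at 145 ± 8.31 and 147 ± 13.1 CPM (adjusted p = 0.834), and the fringe glycosyltransferase Lfng at 137 and 138 CPM (adjusted p = 0.903), and neither passed. Of gamma-secretase, the catalytic presenilin gene Psen2 rose by 0.24 (adjusted p = 0.0274). The subunit gene Aph1c, the other one called lower, stood at 0.823 to 1.529 CPM under the wild type label and 0.212 to 0.690 CPM under the knockout label. Like Hes1 it exceeded the filter level of 0.703 CPM only in wild type libraries, so it entered the test through the label where it is high and its call is no support for a fall. It also has a near-identical copy in Aph1b, so its level is uncertain. The Psen2 call ended without wild type 1, 2 or 3 or knockout 1 or 3 (adjusted p = 0.0954, 0.0514, 0.0507, 0.0725 and 0.0598) and with library totals (0.0765).

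Of 9 coactivators tested 3 rose, 1 fell and 5 did not pass, or 44.4% called beside 30.4% of all tested genes. The acetyltransferase genes Kat2b, Kat2a and Ep300 rose by 0.41, 0.34 and 0.27 on the log2 scale (adjusted p = 0.00024, 0.0044 and 0.00864). Cdk8, the mediator kinase that marks the Notch intracellular domain for destruction, had -0.24 (adjusted p = 0.0126), a call that ended without knockout 4 (0.0585). Maml2, at 104 and 111 CPM, did not pass (adjusted p = 0.34). Kat2a and Ep300 did not pass with knockout 2 and 3 alone (adjusted p = 0.138 and 0.0945). Of 16 corepressor genes tested 4 rose, 4 fell and 8 did not pass, or 50% called beside the same 30.4%. Hdac1, a histone deacetylase, rose from 214 ± 9.20 to 272 ± 1.52 CPM and Sap30, a subunit of the same complex, from 14.2 ± 0.894 to 21.3 ± 1.66 CPM (adjusted p = 0.000103 and 0.000166). L3mbtl3, a chromatin reader that RBPJ recruits, had -0.43 (adjusted p = 0.000851), and the Groucho family genes Tle2 and Tle4 had -0.53 and -0.33 (adjusted p = 0.0105 and 0.0236). The Tle2 call ended without wild type 4 (0.0596), and that of Tle4 without wild type 4 (0.0801), knockout 1 (0.0523) or knockout 3 (0.0971). Tle3, the most abundant that did not pass, had 0.14 (adjusted p = 0.0684).

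Ubiquitin ligases and endocytic regulators of the receptor went both ways, 3 up, 3 down and 9 not passing of 15 tested. That is 40% called, beside 30.4% of all tested genes. Nedd4, a ligase that targets Notch among many substrates, fell most clearly, to 99.6 ± 6.08 CPM from 170 ± 9.57 CPM (SD, n = 4 each). On the log2 scale the change was -0.77 (SE 0.068, adjusted p = 1.21e-08). Its wild type libraries held 161.5 to 182.1 CPM and its knockout libraries 94.8 to 108.2 CPM. Fbxw7, which directs the Notch intracellular domain to the proteasome, rose from 55.6 ± 2.39 to 73.4 ± 5.59 CPM (0.40, adjusted p = 0.00026). Among relatives of Dtx1, Dtx3 fell with it, by a log2 fold change of -0.40 (adjusted p = 0.000182), while Dtx3l rose by 0.29 (adjusted p = 0.00241). Neurl1b, a Neuralized ligase, rose by 0.53 (adjusted p = 0.0136), a call that ended without wild type 1 (0.0579) or wild type 2 (0.0578). Cbl, at 312 and 300 CPM, did not pass (adjusted p = 0.486).

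The relatives of Hes1 gave little to compare. Of 8 HES and HEY genes only Hes6, which can oppose Hes1, had enough counts, at 33.7 ± 1.49 and 38.6 ± 2.82 CPM (log2 fold change 0.19, adjusted p = 0.087, passing without knockout 2 at 0.0421). Hes5, the relative most often read as a Notch target, was counted 1, 6, 1 and 5 times in wild type 1 to 4 and 0, 0, 0 and 3 times in knockout 1 to 4, too few to test. Hey1 was spread over both labels at 2 to 14 and 5 to 16 counts.

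T cell genes reported elsewhere as Notch targets went both ways. Of 16 tested, 6 rose, 3 fell and 7 did not pass, with a median log2 fold change of 0.12. That is 56.2% called, beside 30.4% of all tested genes. Gata3, the Th2 factor, rose from 19.5 ± 1.54 to 31.9 ± 0.913 CPM (0.70, adjusted p = 3.55e-06), and Il4, the Th2 cytokine, from 3.56 ± 0.874 to 7.17 ± 1.25 CPM (1.03, adjusted p = 0.00035). The cyclin gene Ccnd3 rose by 0.35 (adjusted p = 0.000195). Il7r, the interleukin-7 receptor, fell from 292 ± 12.7 to 188 ± 19.6 CPM (-0.64, adjusted p = 4.59e-07). Il17a, the cytokine of the Th17 program, had -0.96 (adjusted p = 0.0406), a call that ended whenever any 1 library other than wild type 4 was left out (0.051 to 0.105). It passed with DESeq2 (0.00229) and limma-voom (0.000235). Tcf7, a T lineage factor, did not pass (0.20, adjusted p = 0.0592), but did without wild type 4 (0.0156) or knockout 3 (0.0427). Under the same label 15 of 17 B cell markers and 3 of 4 tested dendritic cell, macrophage and monocyte markers fell. What part those cells had in the levels of any of these pathway groups was not tested.

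**Figure D4:**
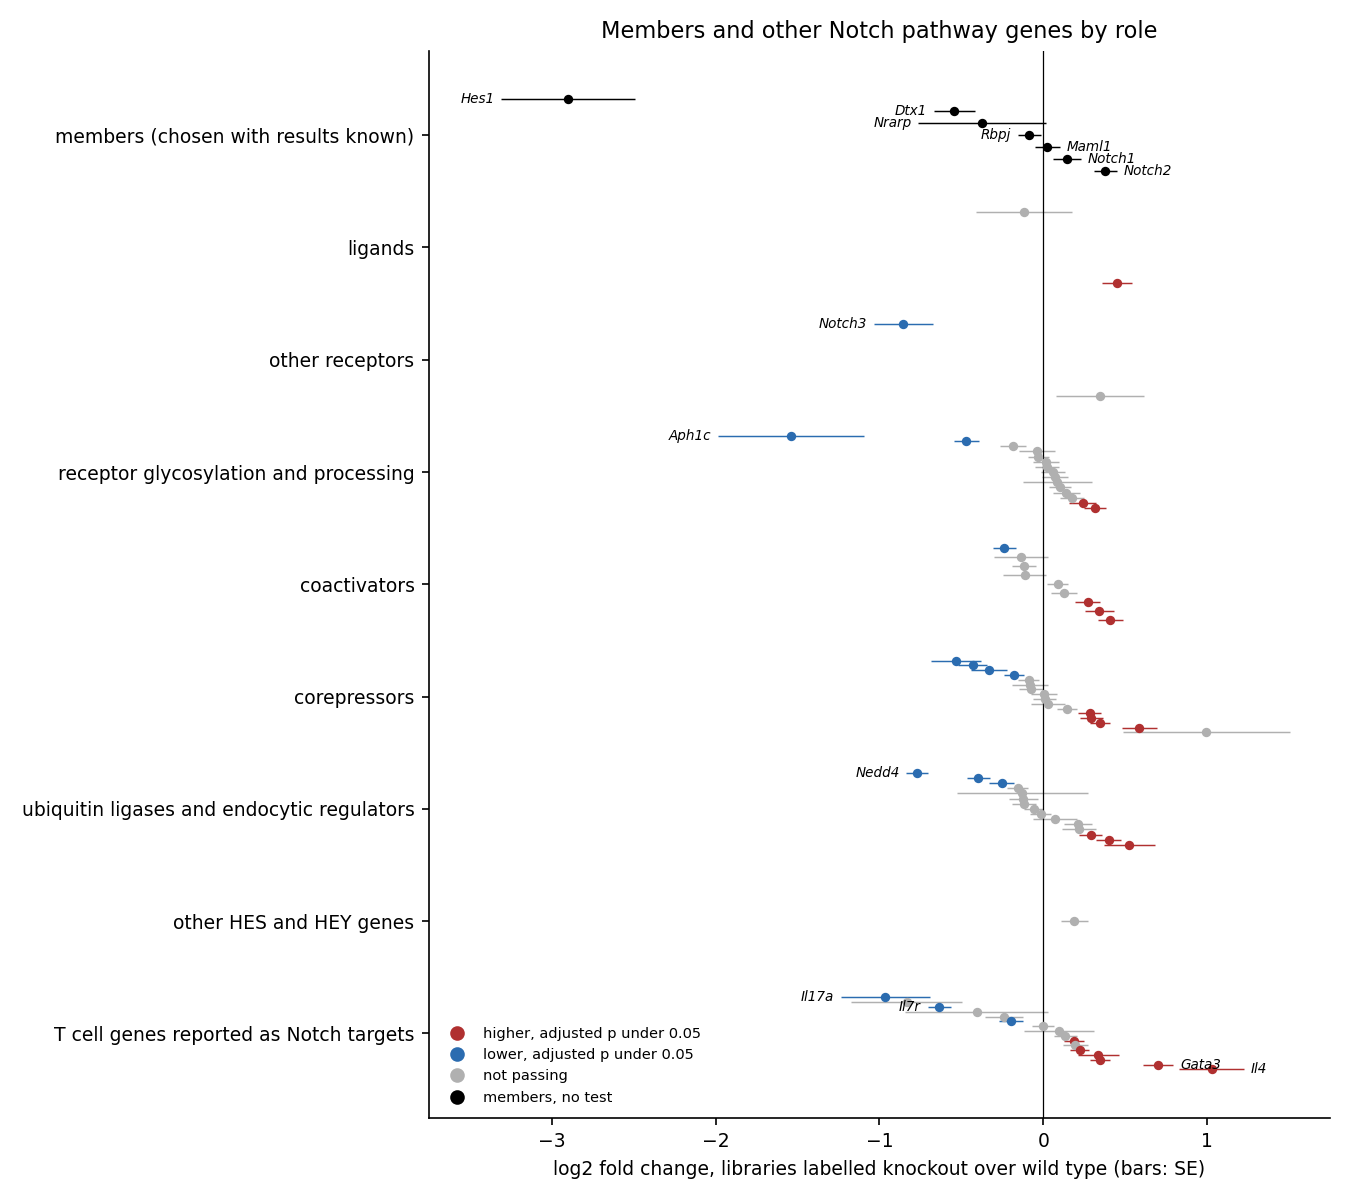
Log2 fold change of libraries labelled knockout over wild type, with SE bars, for the 7 members (black, no test) and the 76 other tested pathway genes by role, coloured by whether they passed an adjusted p of 0.05. Hes1 at -2.90 lies farthest from 0, and within most roles some genes are higher and some lower.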

How the data were processed

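The authors deposited raw counts per gene for 8 libraries, whole numbers with no normalization, together with gene lengths in bases. The submitters' processing notes name fastp without a version. Aligner, counter, strand setting and genome build: not given in the sources used here. Of 54532 gene identifiers 54495 were in GENCODE M21 (GRCm38), and 53585 of these had identical coordinates there, which is why positions are printed as GRCm38.

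The analysis used edgeR 4.0.16 under R 4.3.3: filterByExpr (minimum count 10, minimum total 15), TMM scaling, a robust quasi-likelihood F-test of genotype over all 8 libraries, two-sided, Benjamini-Hochberg over 14428 genes, calls at 0.05. CPM values are TMM-scaled, and CPM per kilobase divides them by the deposited gene length. SEs are log2 fold changes divided by the root of F. Profiles used log2 CPM with a prior count of 2. The steps were tested on simulated data, where false calls made up somewhat more of the calls than the nominal threshold allows and the smallest changes were recovered least often. Libraries of 1 label differed beyond sampling noise, so none was merged. Counts bound precision and carry no molecular identifiers.

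The members, the pathway and marker lists and the tests were chosen with earlier results of these data known. Named beside the members were, from each role, up to 5 called genes with the largest change and the most abundant gene that did not pass, and for members changed by at least 1 the 5 genes of nearest profile. Lfng, Hes5, Hey1, Dll1, Dll3, Jag1 and the marker genes fall outside that rule and were named after their values were seen. Alternatives were DESeq2 size factors, library totals, other filters, a replicate block, each library left out, DESeq2 1.42.0 and limma-voom (limma 3.58.1). Pairs of knockout libraries alone were added after the data were seen.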

Additional observations from a re-analysis of the deposited data

Results flagged for a closer look

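The total count of wild type 2, 8918342 against 13937896 in the nearest wild type library, lay apart from the others of its label. Dll4 stood at 1.245 CPM in knockout 2, under 1.917 CPM in the nearest knockout library, and Adam10 at 166.9 CPM in knockout 2, above 141.6 CPM. Neither gene passed the test. A library was marked when its gap to the nearest other library took more of the range of the 4 than Dixon's 95% critical value allows, and 94 such sets of 4 were examined, of which chance marks about 5%. No set for the 7 members was marked.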

How the results depend on the processing

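Genes called over all tested genes ran from 3559 to 4679 when 1 library was left out (higher 1785 to 2430, lower 1746 to 2249), beside 4380 (2272 and 2108). The other pathway genes called ran from 26 to 36 (higher 15 to 22, lower 10 to 14), beside 33. With knockout 2 and 3 alone 12 of them were higher. For members the log2 fold change ran from -3.18 to -2.60 for Hes1, -0.636 to -0.491 for Dtx1, 0.35 to 0.431 for Notch2, 0.081 to 0.221 for Notch1, -0.139 to -0.0438 for Rbpj, -0.0118 to 0.0719 for Maml1 and -0.73 to -0.127 for Nrarp. Knockout 1 and 4 alone gave 0.341 for Notch1, 0.468 for Notch2 and 0.0328 for Nrarp, whose sign reversed. Knockout 2 and 3 alone reversed Notch1 (-0.0594) and Rbpj (0.0289). Maml1 reversed with library totals (-0.0238), without wild type 2 (-0.00529) and without knockout 4 (-0.0118). The cause was not tested. The signs of Hes1, Dtx1 and Notch2 held under every alternative run.

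With the replicate number as a block 4936 genes and 36 pathway genes were called, and Hes1 had -2.94, Dtx1 -0.54 and Notch2 0.378. Same-numbered libraries deviated together weakly, with correlations of 0.0507 to 0.0906, all positive. Of the wild type libraries 3 of 4, and of the knockout libraries 2 of 4, were closest to their own number. The labels do not say whether same-numbered libraries were pairs, and these values cannot decide it. With the block Tcf7 passed (adjusted p = 0.0165, edgeR) and Il17a had an adjusted p of 2.39e-08. With no low-count filter Cdk8 (0.0653), Tle4 (0.0599) and Il17a (0.0918) lost their calls and Tcf7 gained one (0.0037). Tle3 passed with DESeq2 (0.0497). Counts of 3 to 7 reads per knockout library limit how well the Hes1 fold is known.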
